A study of Mus musculus with 6 samples.

Results

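Gluconeogenesis is the making of glucose from lactate, amino acids and glycerol, and the liver is its main site. The genes described here are the 4 committed steps and their partners, chosen by name: Pcx, Pck1, Pck2, Fbp1, Slc37a4 and G6pc, together with Ppargc1a, a transcriptional coactivator of the pathway. They are 7 genes of the 48432 in the deposited table, all 7 were found under these symbols (G6pc is not written G6pc1 here), and all 7 passed the filter on low counts that left 16533 genes for testing. The liver transcriptome was sequenced from 10-week-old mice of 2 groups with 3 libraries each. Control mice (Ctl) have the genotype Albumin-Cre, so they carry a Cre transgene driven by the albumin promoter, which is active in hepatocytes. The knockout mice (Li-KO) are labelled as a liver-specific Klf15 knockout. Klf15 is a Kruppel-like zinc finger transcription factor. The labels give no sex, feeding state or hour of collection, and nothing in them says that libraries 0, 1 and 2 of a group are different animals. P-values here therefore measure the spread between libraries, which may be technical. In whole liver, fewer cells of a type and less RNA per cell cannot be told apart.

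Most steps of gluconeogenesis run glycolysis backwards with the same enzymes, and the members are those that bypass its irreversible steps. Pyruvate carboxylase (Pcx) makes oxaloacetate in mitochondria. Phosphoenolpyruvate carboxykinase turns oxaloacetate into phosphoenolpyruvate, in the cytosol (Pck1) or in mitochondria (Pck2). Fructose-1,6-bisphosphatase (Fbp1) bypasses phosphofructokinase. The carrier Slc37a4 brings glucose-6-phosphate into the endoplasmic reticulum, where the catalytic subunit G6pc releases glucose. In fasting, glucagon acting through cAMP and CREB, glucocorticoids and FOXO1 are known to induce Pck1, G6pc and Ppargc1a, and insulin after a meal lowers them.

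The libraries held 30132499 to 42782318 fragments in the genes kept. Klf15 was at 174 to 345 CPM (counts scaled to a common library size) in Ctl and at 41.6 to 54.3 CPM in Li-KO, giving -2.28 ± 0.26 (SE) as log2 fold change (adjusted p = 0.00275) by the quasi-likelihood test of edgeR, the test used throughout. The label liver was checked against 12 hepatocyte genes. Of these, 5 (Alb, Apob, Serpina1a, Cps1 and Ahsg) were listed at 0 because the authors' software skipped them as too abundant, and the other 7 summed to 21145 to 30886 CPM in Ctl and 22780.0 to 26175 CPM in Li-KO. Of those 7, Tdo2 alone was called, lower in Li-KO. Markers of Kupffer cells (8 genes) summed to 244 to 352 CPM in Ctl and 216 to 317 CPM in Li-KO, and no tested gene of that list, of the 7 sinusoidal endothelial genes or of the 8 stellate cell and fibroblast genes was called. The 7 kidney and intestine markers, tissues that also make glucose, summed to 47.1 to 53.3 CPM in Ctl and 62.1 to 77.2 CPM in Li-KO, with Slc12a1 and Kap at 0 in all libraries. Of the 3 that could be tested, all lay apart and higher in Li-KO and 1 was called (Vil1). Of 6 cholangiocyte markers, which summed to 33.5 to 63.8 CPM in Ctl and 48.0 to 152 CPM in Li-KO, 1 was called, Sox9, which fell. The part of these cells in the results for the members was not tested. Over all genes tested, 12.0% were called and 35.2% had groups that did not overlap.

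Among the 7 members, 1 rose (Fbp1), 1 fell (Pcx) and 5 were not called at an adjusted p under 0.05. Over all genes tested, 12.0% were called, 6.11% higher and 5.90% lower in Li-KO. The 3 values of one group lay entirely apart from those of the other for 3 members, Fbp1 and Slc37a4 higher and Pcx lower, while 35.2% of all genes tested were apart in this way, 17.4% higher and 17.8% lower. The median log2 fold change of the members was 0.56, against -0.01 over all genes tested. The plot of CPM in each library shows that the members differ in how far libraries of one group spread.

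**Figure D1:**
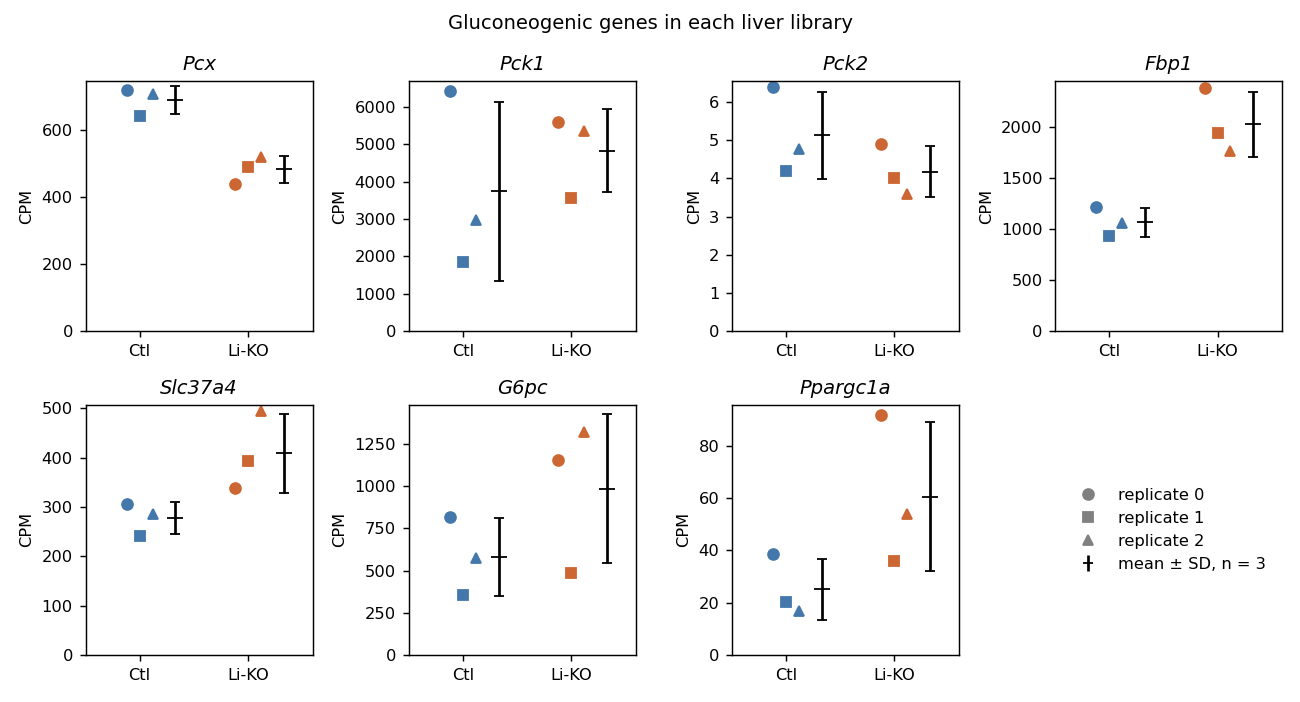
Level of each gene in CPM (vertical axes, linear from 0, own scale per gene) in the 3 Ctl libraries (blue) and the 3 Li-KO libraries (orange), with symbols for the replicate number and the mean ± SD beside them. Pcx, Fbp1 and Slc37a4 separate the groups, while Pck1, Pck2, G6pc and Ppargc1a overlap.

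Promoter windows are given for the 4 members that the results turn on, Pcx and Fbp1 because they were called and Pck1 and Ppargc1a because their libraries spread most together with G6pc. Each is the 250 bases before a RefSeq start site on GRCm38.p6, the assembly of mm10, written 5′ to 3′ on the strand of the gene. All 7 members matched an entry by symbol, with 2 start sites for Pcx (the upstream one is shown), 3 for Slc37a4 and 1 for each other gene. Capitals mark matches to 3 short motifs, each searched on both strands. The half-site of the cAMP response element was written as TGACG. The GC box, bound by Sp and related zinc finger factors, was written as GGGCGG. The CACCC box, the kind of site that Kruppel-like factors are known to bind, was written as CACCC. The forkhead core, written as TGTTTAC, was searched too and was not found in the window of any member.
Pcx, chr19:4510222-4510471, plus strand: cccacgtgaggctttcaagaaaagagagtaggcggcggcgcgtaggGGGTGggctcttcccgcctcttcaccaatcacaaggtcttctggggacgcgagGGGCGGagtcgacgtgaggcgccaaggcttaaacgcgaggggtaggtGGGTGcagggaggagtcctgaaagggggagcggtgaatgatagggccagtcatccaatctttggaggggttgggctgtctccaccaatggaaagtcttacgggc
Pck1, chr2:173152823-173153072, plus strand: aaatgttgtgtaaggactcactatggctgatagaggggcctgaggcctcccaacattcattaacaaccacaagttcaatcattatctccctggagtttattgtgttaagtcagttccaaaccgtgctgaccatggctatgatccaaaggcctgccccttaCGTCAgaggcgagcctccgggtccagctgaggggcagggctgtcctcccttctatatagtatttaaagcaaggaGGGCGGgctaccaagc
Fbp1, chr13:62888283-62888532, minus strand: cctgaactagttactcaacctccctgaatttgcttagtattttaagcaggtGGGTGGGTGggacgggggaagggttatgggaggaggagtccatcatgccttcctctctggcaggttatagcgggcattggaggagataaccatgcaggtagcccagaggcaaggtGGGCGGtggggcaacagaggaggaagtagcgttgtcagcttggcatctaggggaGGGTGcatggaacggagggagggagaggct
Ppargc1a, chr5:51567726-51567975, minus strand: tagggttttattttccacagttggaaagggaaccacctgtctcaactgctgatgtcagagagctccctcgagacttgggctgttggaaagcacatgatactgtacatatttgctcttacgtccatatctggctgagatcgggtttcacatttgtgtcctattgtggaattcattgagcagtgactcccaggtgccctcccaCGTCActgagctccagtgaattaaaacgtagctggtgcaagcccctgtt
The Pck1 window holds 1 half-site, from -90 to -86 relative to the start, and the Ppargc1a window holds 1, from -49 to -45, both on the opposite strand. The window of the other Pcx start, not shown, holds no match to any of the motifs, and which start these livers used was not tested. The Pcx window shown has 1 GC box and 2 CACCC boxes, and the Fbp1 window has 1 GC box and 3 CACCC boxes, of which 2 share a base. Such letters are common. Among all 32851 windows of the same length, 17.8% hold the half-site, 32.7% the GC box, 52.0% the CACCC box and 3.17% the forkhead core. A match is a description of the letters, not a bound site.

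Pcx (ENSMUSG00000024892.15, chromosome 19, 4510472 to 4621752, plus strand, mm10, protein coding) encodes pyruvate carboxylase, the first committed step from pyruvate. It was at 718, 639 and 705 CPM in Ctl libraries 0, 1 and 2, and at 438, 488 and 518 CPM in Li-KO libraries 0, 1 and 2. Each Li-KO value lay below each Ctl value, and neither group spread by more than 1.18-fold between its highest and lowest library. Pcx fell 1.43-fold, from 687 ± 42.3 to 481 ± 40.3 CPM (SD, n = 3). The log2 fold change was -0.51 ± 0.13 (adjusted p = 0.0398, edgeR). The call held without Li-KO library 2 (adjusted p = 0.0357) and was lost when any one of the other libraries was left out, with adjusted p from 0.0868 to 0.139 and log2 fold changes from -0.54 to -0.43. Lrfn4, on the opposite strand inside the Pcx locus, had 4 to 38 fragments per library, against 13588 or more for Pcx.

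Pck1 (ENSMUSG00000027513.11, chromosome 2, 173153048 to 173159273, plus strand) encodes the cytosolic phosphoenolpyruvate carboxykinase, long used as the marker of gluconeogenic gene expression. It was at 6436, 1840.1 and 2963 CPM in Ctl libraries 0, 1 and 2, and at 5582, 3572 and 5343 CPM in Li-KO libraries 0, 1 and 2. Ctl library 0 was the highest of all 6, and Ctl libraries 1 and 2 lay below every Li-KO library. The Ctl values spread 3.50-fold and the Li-KO values 1.56-fold. The means were 3746 ± 2396 and 4832 ± 1098 CPM, and the log2 fold change was 0.37 ± 0.42 (adjusted p = 0.603, edgeR), which does not show that the groups were alike. The size of this difference depended on which Ctl library was left out. Without Ctl library 0 the log2 fold change was 1.01 (adjusted p = 0.0703), and without Ctl library 1 it was 0.06 (adjusted p = 0.947). Pck1 alone took 0.193% to 0.633% of the fragments of a Ctl library and 0.356% to 0.575% of those of a Li-KO library.

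Pck2 (ENSMUSG00000040618.6, chromosome 14, 55540266 to 55551242, plus strand), the mitochondrial isoform, was at 6.40, 4.20 and 4.77 CPM in Ctl libraries 0, 1 and 2, and at 4.90, 4.01 and 3.597 CPM in Li-KO libraries 0, 1 and 2. The groups overlapped, and only 125 to 267 fragments lay behind each value. The log2 fold change was -0.30 ± 0.24 (adjusted p = 0.456). Levels of different genes are compared per length, in FPKM (fragments scaled by transcript length and library size). On that scale the ratio of Pck1 to Pck2 was 1266, 551 and 765 in Ctl libraries 0, 1 and 2, and 1454, 1144 and 1882 in Li-KO libraries 0, 1 and 2.

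Fbp1 (ENSMUSG00000069805.10, chromosome 13, 62864753 to 62888282, minus strand) encodes the liver fructose-1,6-bisphosphatase. It was at 1214, 931 and 1054 CPM in Ctl libraries 0, 1 and 2, and at 2374, 1940.1 and 1758 CPM in Li-KO libraries 0, 1 and 2. The lowest Li-KO library was above the highest Ctl library. Fbp1 rose 1.90-fold, from 1066 ± 142 to 2024 ± 316 CPM. Its log2 fold change was 0.92 ± 0.18 (adjusted p = 0.0168, edgeR). The fold change stayed between 0.81 and 1.02 on the log2 scale when any one library was left out, but the call was lost without Ctl library 1 (adjusted p = 0.0714), Ctl library 2 (0.0649) or Li-KO library 1 (0.0661). The muscle isoform Fbp2 and the islet-type phosphatase G6pc2 did not pass the filter, and G6pc2 had 0 fragments in all 6 libraries.

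Slc37a4 (ENSMUSG00000032114.8, chromosome 9, 44396852 to 44402968, plus strand), the glucose-6-phosphate carrier, was at 305, 241 and 285 CPM in Ctl libraries 0, 1 and 2, and at 338, 393 and 495 CPM in Li-KO libraries 0, 1 and 2. All Li-KO values were above all Ctl values, by a narrow margin between Li-KO library 0 and Ctl library 0. The means were 277 ± 32.6 and 409 ± 79.5 CPM, with a log2 fold change of 0.56 ± 0.17. The adjusted p of 0.0657 by edgeR missed the threshold, and it was 0.0156 by DESeq2 and 0.0401 by edgeR without Li-KO library 0. Without any one of the other 5 libraries it was not called (adjusted p from 0.0880 to 0.195). On FPKM the difference was smaller, 125 ± 14.7 against 166 ± 37.7, and the library values overlapped.

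G6pc (ENSMUSG00000078650.2, chromosome 11, 101367561 to 101377903, plus strand), which carries out the last step, was at 815, 353 and 574 CPM in Ctl libraries 0, 1 and 2, and at 1153, 484 and 1321 CPM in Li-KO libraries 0, 1 and 2. Li-KO library 1 lay inside the Ctl range, and the other Li-KO libraries lay above it. The means were 581 ± 231 and 986 ± 443 CPM, and the log2 fold change was 0.76 ± 0.40 (adjusted p = 0.240, edgeR). With single libraries left out it ran from 0.49 without Li-KO library 2 (adjusted p = 0.466) and 0.52 without Ctl library 1 (0.500) to 1.09 without Ctl library 0 (0.146) or Li-KO library 1 (0.111), and it was not called in any of these 6 fits. The broadly expressed isoform G6pc3, the one tested member of its short list, had a log2 fold change of 0.25 and was not called.

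Ppargc1a (ENSMUSG00000029167.13, chromosome 5, 51454250 to 51567726, minus strand) encodes PGC-1 alpha, a coactivator that docks on HNF4A, FOXO1 and estrogen-related receptors. It was at 38.4, 20.05 and 16.9 CPM in Ctl libraries 0, 1 and 2, and at 91.7, 35.9 and 53.7 CPM in Li-KO libraries 0, 1 and 2. Only Ctl library 0 and Li-KO library 1 kept the groups from lying apart. The means were 25.1 ± 11.6 and 60.4 ± 28.5 CPM, a fitted ratio of 2.40 and the largest log2 fold change of the 7 members, 1.27 ± 0.39. Its adjusted p of 0.0678 by edgeR missed the threshold. It was 0.0324 without Ctl library 0, with a log2 fold change of 1.71, and 0.00384 by DESeq2, while without Li-KO library 0 the log2 fold change was 0.85 (adjusted p = 0.152). Without any one of the 5 libraries other than Ctl library 0 it was not called (adjusted p from 0.0713 to 0.207).

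**Figure D2:**
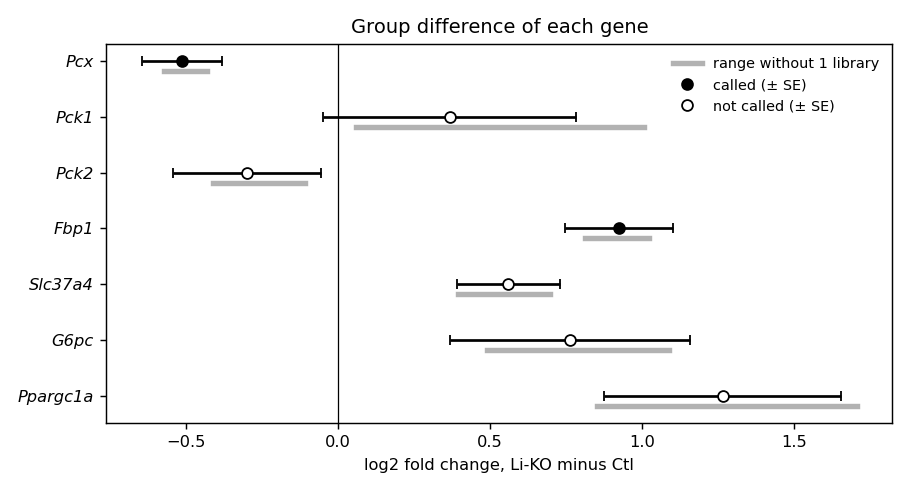
Log2 fold change of each gene, Li-KO minus Ctl (horizontal axis), with its SE, filled where the gene was called. Grey bars give the range when any one of the 6 libraries is left out: no bar crosses 0, and the bars of Pck1 (0.06 to 1.01) and Ppargc1a (0.85 to 1.71) are the longest.

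The deposited FPKM of Ppargc1a differed between the groups by more than its fragments did. It was 4.51, 2.26 and 1.99 FPKM in Ctl libraries 0, 1 and 2, and 13.96, 4.91 and 7.06 FPKM in Li-KO libraries 0, 1 and 2, so every Li-KO value was above every Ctl value. Fragments divided by FPKM were scaled by each library's median over 8755 genes. This value follows the transcript length that the authors' software assigned to a gene in that library, together with any correction it applied. For Ppargc1a this value, relative to the geometric mean of Ctl, was 0.988, 1.03 and 0.985 in Ctl libraries 0, 1 and 2. In Li-KO libraries 0, 1 and 2 it was 0.754, 0.845 and 0.863. The 3 Li-KO libraries were all below the Ctl libraries, with a difference of -0.29 on the log2 scale (p = 0.1 by a two-sided exact permutation test, the smallest p that 3 against 3 libraries can give). Of the 8755 genes, 17.9% had groups that lay apart in this measure, and 1.23% had a more negative difference than Ppargc1a. Slc37a4 went the other way, at 0.956 to 1.04 in the Ctl libraries and 1.05 to 1.13 in the Li-KO libraries (difference 0.14). For Pcx, Pck1, Fbp1 and G6pc the differences were 0.00 to 0.03, and of these only G6pc had groups that lay apart. Which transcript forms of Ppargc1a lie behind these values was not tested, since the table gives 1 row per gene.

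**Figure D3:**
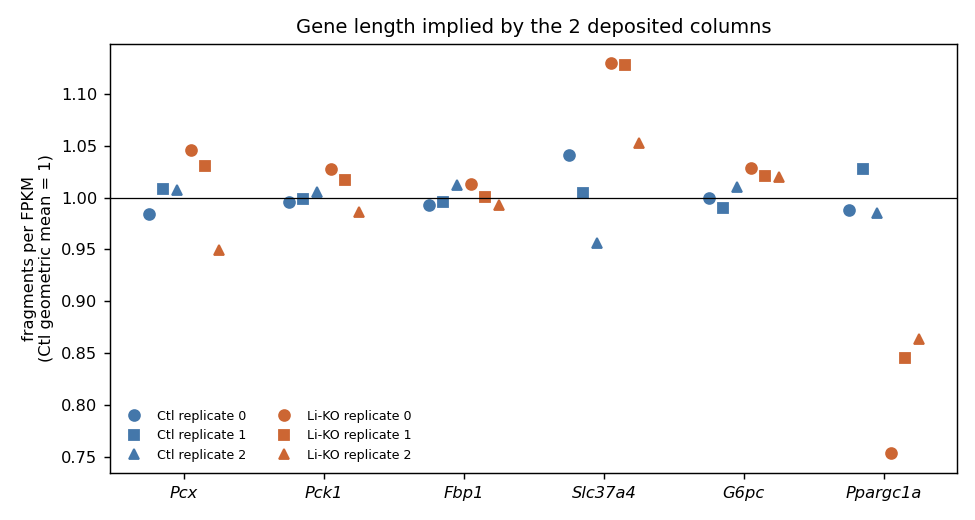
Fragments per FPKM for each gene (vertical axis, relative to the geometric mean of Ctl; it does not start at 0), in the Ctl (blue) and Li-KO (orange) libraries. Ppargc1a is at 0.754 to 0.863 in Li-KO, below all Ctl libraries; Pck2 is left out because its mean was under 10 CPM.

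On the FPKM scale the order of levels was the same in both groups. In Ctl, Pck1 led at 1083 ± 696 FPKM, followed by Fbp1 (590 ± 80.8), G6pc (194 ± 76.8), Slc37a4 (125 ± 14.7), Pcx (122 ± 8.90), Ppargc1a (2.92 ± 1.38) and Pck2 (1.18 ± 0.26). Neighbours whose libraries overlapped in Ctl were Pck1 and Fbp1, G6pc and Slc37a4, and Slc37a4 and Pcx. In Li-KO the levels were 1364 ± 306 for Pck1, 1103 ± 164 for Fbp1, 317 ± 140.4 for G6pc, 166 ± 37.7 for Slc37a4, 83.9 ± 10.6 for Pcx, 8.64 ± 4.73 for Ppargc1a and 0.921 ± 0.131 for Pck2. There the libraries of Slc37a4 and Pcx no longer overlapped, while those of Pck1 and Fbp1 and those of G6pc and Slc37a4 did. By mean FPKM, Pck1 ranked 51 and 42 among 48355 genes in Ctl and Li-KO, and Fbp1 ranked 101 and 59. The 77 skipped genes, some of the most abundant liver genes among them, are not in these ranks.

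Libraries of one group spread far more for Pck1, G6pc and Ppargc1a than for the other members. The pooled SD of log2 CPM within groups was 0.69 for Pck1, 0.70 for G6pc and 0.65 for Ppargc1a, against a median of 0.18 over the 8779 genes with a mean of at least 10 CPM, of which 97.4% or more spread less. It was 0.11 for Pcx, 0.21 for Fbp1, 0.23 for Slc37a4 and 0.27 for Pck2. Ctl library 0 was the highest Ctl library for 7 of 7 members and Ctl library 1 the lowest for 6 of 7. Among the Li-KO libraries, library 0 was the highest for 4 members and library 2 for 3, and library 1 was the lowest for Pck1, G6pc and Ppargc1a.

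Genes known to respond to glucocorticoids were high or low in some of the same libraries. Their list has 10 genes, Tsc22d3, Fkbp5 and Tat among them, and 0 of the 10 were called, against 12.0% of all genes tested. In Ctl library 0, 10 of 10 lay above their own group mean, in Ctl library 1 0 of 10 did, and in Ctl library 2 5 of 10 did. In Li-KO libraries 0, 1 and 2 the numbers were 2, 2 and 10. Their summed level was 7795, 2297 and 3354 CPM in Ctl libraries 0, 1 and 2, and 6092, 3370 and 5903 CPM in Li-KO libraries 0, 1 and 2. Tat, tyrosine aminotransferase, made up much of these sums, and Fkbp5, a cochaperone of the glucocorticoid receptor, was at 318, 97.2 and 112 CPM in the Ctl group, against 62.0, 106 and 286 CPM in the Li-KO group. Li-KO library 0, high for Pck1 and Ppargc1a, was thus not high for Fkbp5. The part of hormone state, feeding or hour of collection in the spread of the members was not tested.

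**Figure D4:**
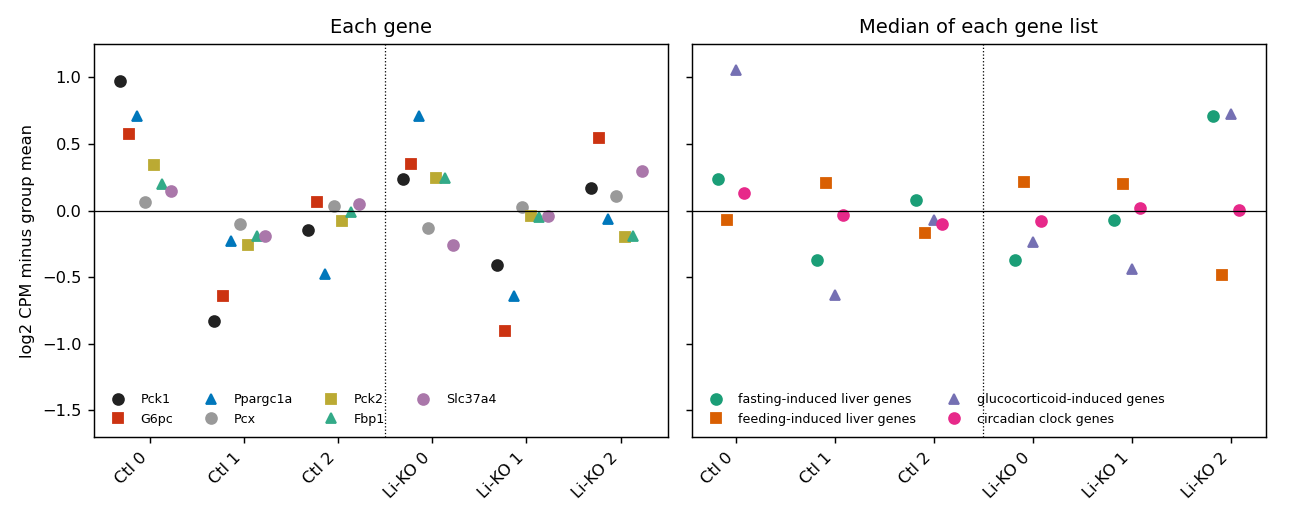
Log2 CPM of each library minus the mean of its group (vertical axis) for the 7 genes (left) and as the median over each gene list (right), with Ctl and Li-KO libraries divided by the dotted line. Pck1, G6pc and Ppargc1a are high in Ctl 0 and low in Li-KO 1, and the glucocorticoid-induced list is high in Ctl 0 and Li-KO 2.

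The genes nearest to Pck1 in pattern, by the root mean square difference of log2 CPM centred on each gene's mean over the 6 libraries, were Tat (0.13), the mitochondrial carrier Slc25a51 (0.16) and Lyve1 (0.19), out of 8364 genes compared. Tat was at 6477, 1815 and 2643 CPM in Ctl libraries 0, 1 and 2, and at 5390.5, 2761 and 4591 CPM in Li-KO libraries 0, 1 and 2, close to the course of Pck1. G6pc was nearest to Arl4d (0.28), Lyve1 (0.29) and Slc25a25 (0.34), and Ppargc1a to Gnpda1 (0.23), Scarna2 (0.25) and Steap2 (0.29). For Fbp1 they were Trappc2l (0.04), Tmem147 (0.07) and Anxa6 (0.07). Lyve1 is a marker of sinusoidal endothelium, and it was at 35.8, 9.58 and 14.5 CPM in the Ctl group, against 28.3, 14.6 and 33.8 CPM in the Li-KO group, while the summed endothelial list was at 527, 509 and 573 CPM and 420.0, 375 and 622 CPM.

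Of 12 tested genes on the opposing side in glycolysis, 3 fell and 0 rose, beside 5.90% and 6.11% of all genes. Their median log2 fold change was 0.01. The 12 include regulators, Gckr and the Pfkfb genes, and Pklr alone of the 3 that fell catalyses an opposing step. In the fits without Ctl library 0 or without Li-KO library 2, and with the replicate number as a block, 1 of the 12 was called higher. Pklr, the liver pyruvate kinase, was at 316, 455 and 276 CPM in Ctl libraries 0, 1 and 2 and at 72.5, 98.0 and 49.8 CPM in Li-KO libraries 0, 1 and 2 (log2 fold change -2.25 ± 0.28, adjusted p = 0.00361). Pfkfb1 and Pfkfb3, bifunctional enzymes and kinases that set fructose-2,6-bisphosphate, an inhibitor of Fbp1, fell by 3.37 and 1.66 on the log2 scale (adjusted p = 0.000626 and 0.000968). Pfkfb1 was at 69.7, 47.4 and 42.8 CPM in the Ctl group, against 3.74, 5.49 and 6.25 CPM in the Li-KO group. These 3 calls held when any one library was left out.

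Set against their opposing enzyme within each library, on FPKM, the ratio of Pck1 to Pklr was 21.3, 4.31 and 11.4 in Ctl libraries 0, 1 and 2, and 81.7, 38.7 and 111 in Li-KO libraries 0, 1 and 2. The ratio of Fbp1 to Pfkl, liver phosphofructokinase, was 52.1, 56.0 and 60.8 in the Ctl group, against 99.4, 84.9 and 72.8 in the Li-KO group. Both ratios were higher in every Li-KO library than in every Ctl library, by 2.80 and 0.60 on the log2 scale. By two-sided exact permutation p was 0.1 for each of these ratios and 0.2 for that of Pck1 to Pck2, and 0.2 for all 3 after Benjamini-Hochberg adjustment over the 4 ratios computed. No ratio could have gone below 0.1 with 3 libraries per group.

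Of 8 enzymes shared by glycolysis and gluconeogenesis, 3 rose and 0 fell, beside 6.11% and 5.90% of all genes (median log2 fold change 0.57). The summed level of the 8 was lower in Li-KO, at 4968 to 5649 CPM against 5839.9 to 6746 CPM in Ctl. The genes that rose were Aldoa from 107 ± 9.79 to 195 ± 17.8 CPM, Eno1 from 71.6 ± 12.1 to 122 ± 15.8 CPM and Pgk1 from 9.36 ± 3.72 to 23.2 ± 3.10 CPM. Of 23 genes that supply substrate or carry it, 6 rose and 2 fell (median 0.35), against the same shares of all genes. The mitochondrial dicarboxylate carrier Slc25a10 rose from 182 ± 17.7 to 346 ± 32.4 CPM (adjusted p = 0.00652), the aspartate-glutamate carrier Slc25a12 from 25.9 ± 3.37 to 46.2 ± 1.26 CPM (adjusted p = 0.00924) and the pyruvate carrier subunit Mpc1 from 6.98 ± 0.619 to 14.3 ± 2.52 CPM (adjusted p = 0.0124). Gpt, alanine aminotransferase, fell by 0.79 on the log2 scale (adjusted p = 0.0142). Slc2a2, the glucose transporter GLUT2, had a log2 fold change of -0.01. Without Ctl library 1, Ctl library 2 or Li-KO library 1, 1 reversible enzyme rose in each case (Eno1 and Pgk1 lost their calls), and 2, 3 and 3 supply genes rose. Mpc1 lost its call without Ctl library 1 (adjusted p = 0.0587) and Gpt without Li-KO library 1 (0.0646). Gapdh, Pgk1 and other glycolytic genes have processed pseudogenes that may share their fragments, and their levels are uncertain.

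Of 31 tested transcriptional regulators of the pathway, 3 rose and 4 fell, beside 6.11% and 5.90% of all genes. Their median log2 fold change was -0.29. Esrra, estrogen-related receptor alpha and a partner of Ppargc1a, was at 40.7, 39.8 and 36.6 CPM in the Ctl group, against 89.5, 74.7 and 70.0 CPM in the Li-KO group libraries 0, 1 and 2 (adjusted p = 0.00446). Creb3l3, a liver CREB family factor, rose from 295 ± 28.9 to 544 ± 40.7 CPM (adjusted p = 0.00801). The coactivators Ppargc1b and Crtc2 fell, Ppargc1b from 16.0 ± 3.38 to 7.99 ± 1.18 CPM (adjusted p = 0.0210) and Crtc2, which acts with CREB, from 19.4 ± 4.79 to 11.1 ± 0.638 CPM (adjusted p = 0.0343). Esrra and Creb3l3 kept their calls when any one library was left out, and Trib3, the other gene that rose, lost its call in all 6 such fits (adjusted p from 0.0818 to 0.162). Ppargc1b lost its call without Ctl library 0, Ctl library 1 or Li-KO library 1 (adjusted p up to 0.0984), and Crtc2 without each library except Ctl library 2 (up to 0.121). With Ctl library 0, Ctl library 1 or Li-KO library 1 left out, 0 of the regulators were called lower. Foxo1, Hnf4a and Nr3c1, the glucocorticoid receptor, had log2 fold changes of -0.73, -0.07 and -0.23 and were not called.

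Of 17 hormone receptors and signalling genes, 2 rose and 0 fell (median -0.01), a share called that is close to the 12.0% of all genes. Both were adenylyl cyclases, which make cAMP: Adcy6 was at 36.8, 40.0 and 37.7 CPM in the Ctl group, against 75.3, 88.6 and 71.4 CPM in the Li-KO group (log2 fold change 1.04 ± 0.12, adjusted p = 0.00315), and Adcy9 rose from 52.0 ± 6.59 to 78.8 ± 6.01 CPM (adjusted p = 0.0256). The call of Adcy6 held without any one library. That of Adcy9 was lost without Ctl library 1, Ctl library 2 or Li-KO library 1 (adjusted p up to 0.102). The glucagon receptor Gcgr and the insulin receptor Insr had log2 fold changes of 0.21 and 0.01 and were not called.

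Genes known to follow feeding did not share one direction. Of 16 genes that fasting induces, 2 rose (Cpt1a and Pdk4) and 1 fell (Cyp4a10), beside 6.11% and 5.90% of all genes. Their median log2 fold change was -0.32. The sign of this median depended on Ctl library 0: with that library left out it was 0.37, and 3 genes were called higher and 1 lower. Without Ctl library 1, Ctl library 2 or Li-KO library 1 none of these 16 was called. Of 12 tested genes that feeding induces, 4 fell (Pklr, Acaca, Me1 and Fasn) and 0 rose, beside 5.90% and 6.11% of all genes. The median was -0.69, while Srebf1 and Thrsp had log2 fold changes of 0.25 and 0.14. Fasn was close to the threshold (adjusted p = 0.0476) and lost its call without any one library except Li-KO library 0 (adjusted p up to 0.172). Over the fits that left out 1 library, 3 or 4 of them were called lower, and 1 was called higher without Li-KO library 2. Igfbp1, a strongly fasting-induced gene, was at 169.6, 14.6 and 29.6 CPM in Ctl libraries 0, 1 and 2 and at 38.3, 11.2 and 109 CPM in Li-KO libraries 0, 1 and 2, so that Ctl library 0 and Li-KO library 2 were its highest values. Of 15 tested clock genes, 1 fell (Arntl, log2 fold change -1.49, adjusted p = 0.0313) and 0 rose, against the same shares of all genes. The call of Arntl was lost without Ctl library 0, Ctl library 1, Li-KO library 0 or Li-KO library 1.

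**Figure D5:**
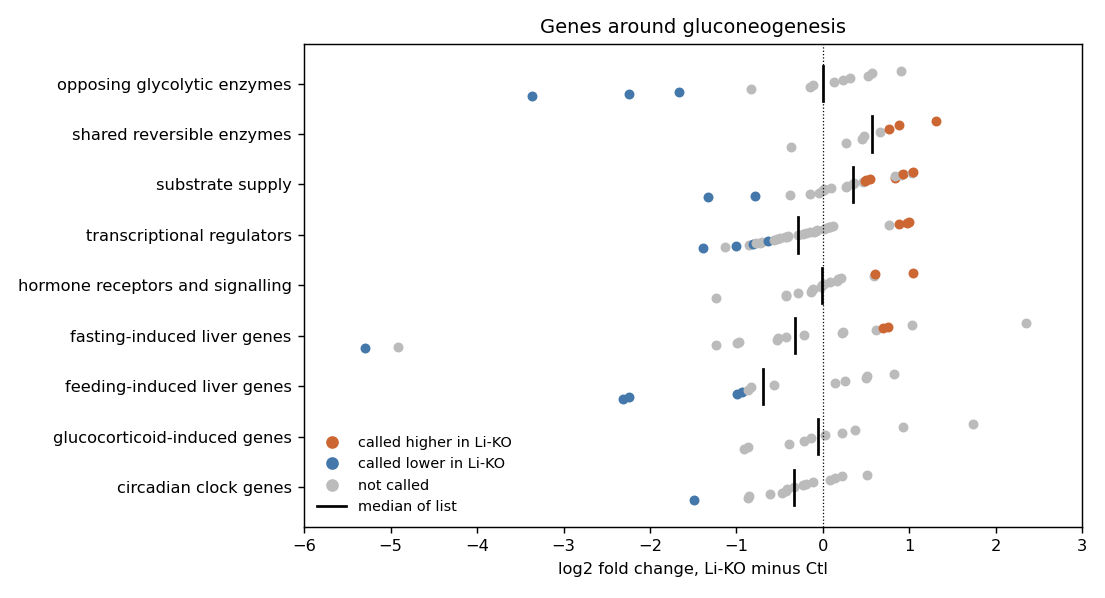
Log2 fold change, Li-KO minus Ctl (horizontal axis), of each tested gene in the lists around gluconeogenesis, coloured by its edgeR call, with the median of each list as a black bar. In the reported fit, calls among opposing glycolytic enzymes (regulators included) and feeding-induced genes were all lower in Li-KO. Pklr is called in both lists. Calls among shared reversible enzymes were all higher.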

How the data were processed

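Liver total RNA of 3 Ctl and 3 Li-KO libraries was prepared with a stranded total RNA kit, per the labels' protocols. Reads were processed with STAR, Cufflinks and Cuffdiff on mm10, per the submitters' processing notes, with versions, annotation and strand setting not given in the sources used here. One deposited table holds 48432 genes with estimated counts (raw fragments, not normalized, 3.29% not whole within 1e-06) and FPKM after the scaling of Cuffdiff, per the file headers. Its 6 sample rows per gene, WT and KO with a replicate number, were assigned to the titles of the Ctl and Li-KO samples.

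Estimated counts were rounded. The 77 genes marked as skipped were left out. Filtering with filterByExpr (edgeR 4.0.16, minimum count 10, total 15), TMM scaling and the two-sided quasi-likelihood test with group as the only term followed. P-values were Benjamini-Hochberg adjusted over 16533 genes, and SE is the log2 fold change divided by the square root of F. Library totals of 30132499 to 42782318 fragments limit the precision of low genes. The procedure was tested on simulated data. Alternatives used DESeq2 1.42.0, limma 3.58.1 on log2(FPKM + 0.1) or log2(FPKM + 1), other scalings and filters, a replicate block and fits without 1 library. R 4.3.3 ran the fits, and Python 3.11.15 with pandas 2.3.3 the joins.

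Symbols were matched by gene ID (48051 of 48432), and positions came from GENCODE M21. Members and gene lists were chosen with earlier results of these data known. Named were all 7 members, Klf15, up to 4 called genes per list by smallest p, and the 3 genes nearest in pattern to 4 members. Other list genes (Pfkl, Slc2a2, Foxo1, Hnf4a, Nr3c1, Gcgr, Insr, Igfbp1, Srebf1, Thrsp, Fkbp5, Tsc22d3, Trib3, Sds, Got1, G6pc3, Fbp2, G6pc2, Gapdh) were named after their values were seen. Results for some list genes are not reported here.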

Additional observations from a re-analysis of the deposited data

How the results depend on the processing

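No member changed its direction in any alternative fit, and scaling moved the median over all genes by under 0.1 (log2). Calls were less stable, and why was not tested, beyond the smaller number of libraries or the larger number of genes tested in some fits. The number of members called higher, 1 in the reported fit, was 2 with upper-quartile scaling, 3 with DESeq2, 3 without a filter on low counts, 3 with the replicate block, 0 with limma on unfiltered log2(FPKM + 0.1) and 0 to 2 when 1 library was left out. The number called lower was 0 with the 3 limma fits on FPKM and 0 to 1 when 1 library was left out. The log2 fold change of Fbp1 was 0.90 and not called with limma on unfiltered log2(FPKM + 0.1), and 0.81 to 1.02 without 1 library. That of Pcx was -0.54 in the 3 limma fits on FPKM and not called, and -0.57 to -0.43 without 1 library. Ppargc1a was called with DESeq2 (1.27), without a filter (1.27) and with the replicate block (1.26), and ranged from 0.85 to 1.71 without 1 library. Slc37a4 was called with upper-quartile scaling (0.56), DESeq2 (0.57) and no filter (0.57), and ranged from 0.39 to 0.70 without 1 library.

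Over all genes, 1010 were called higher and 976 lower. DESeq2 called 1595 and 1551, limma on log2(FPKM + 0.1) 631 and 644, on log2(FPKM + 1) 577 and 595, and on unfiltered log2(FPKM + 0.1) 443 and 460. Without 1 library, 198 to 1102 were called higher and 234 to 1447 lower. Of the 137 tested genes of the pathway lists, 16 were called higher and 14 lower, beside 6.11% and 5.90% of all genes. The number higher was 7 with limma on unfiltered log2(FPKM + 0.1) and 6 to 19 without 1 library. The number lower was 23 with DESeq2, 9, 8 and 6 with limma on log2(FPKM + 0.1), log2(FPKM + 1) and unfiltered log2(FPKM + 0.1), and 6 to 18 without 1 library.

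The groups share the replicate numbers 0, 1 and 2, but the labels do not say that a number marks a shared source. Deviations of same-numbered libraries from their group means correlated at 0.02, 0.08 and 0.07 over genes, so the numbers were not taken to pair libraries, and not every library correlated best with its own number. With the replicate block G6pc was called (log2 fold change 0.72, adjusted p = 0.0456), as was Ppargc1a (adjusted p = 0.0104), Slc37a4 was not (adjusted p = 0.0669), and 956 genes were called higher and 1015 lower. At 125 to 267 fragments per library, Pck2 was the member with the least depth.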

Other observations

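Inside the Ppargc1a locus the annotation holds small transcripts of unknown coding status. Gm43605, on the same strand as Ppargc1a, had 259, 68 and 77 fragments in Ctl libraries 0, 1 and 2, and 67, 21 and 269 in Li-KO libraries 0, 1 and 2. Gm42615, also on that strand, had 106, 44 and 25 fragments in the Ctl group, against 35, 24 and 111 in the Li-KO group. Both were thus high in Ctl library 0 and Li-KO library 2, while Ppargc1a itself was highest in Li-KO library 0, with 2846 fragments. These values are few fragments and were not tested between the groups.

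Gluconeogenesis is known to be strongest in periportal hepatocytes. The 8 periportal markers, Sds among them, summed to 7742, 4993 and 5950.3 CPM in Ctl libraries 0, 1 and 2, and to 9037, 7752 and 8579 CPM in Li-KO libraries 0, 1 and 2. Of these 8 genes, 1 rose (Asl, argininosuccinate lyase, log2 fold change 0.91, adjusted p = 0.0390) and 1 fell (Gls2, liver glutaminase, log2 fold change -1.23, adjusted p = 0.0325) by edgeR. Over all genes tested, 6.11% were called higher and 5.90% lower. Sds, serine dehydratase, was at 733, 116 and 146 CPM in the Ctl group, against 834, 601 and 592 CPM in the Li-KO group, with an adjusted p of 0.311. Got1, cytosolic aspartate aminotransferase, had the same shape, at 827, 140.5 and 292 CPM in the Ctl group, against 782, 788 and 682 CPM in the Li-KO group (adjusted p = 0.326). For Sds, Ctl library 0 lay inside the Li-KO range, and for Got1 it lay above it, while the other Ctl libraries were below every Li-KO library for both genes. Of 8 tested pericentral markers, 1 rose (Oat, ornithine aminotransferase, log2 fold change 0.94, adjusted p = 0.0343) and 0 fell, beside the same shares of all genes.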
